A study of Mus musculus with 6 samples.

Results

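Bile acid and biliary lipid transporters are the membrane proteins that carry bile acids from sinusoidal blood into hepatocytes and move bile acids, phospholipid and cholesterol out again. They were taken as 10 named genes (Slc10a1, Slco1a1, Slco1a4, Slco1b2, Abcb11, Abcb4, Abcc2, Abcc3, Abcg5 and Abcg8), and each matched 1 of the 55401 genes in the deposited count table. All 10 were among the 17394 genes that passed the filter on low counts. The series sequenced polyadenylated RNA from fresh liver tissue of C57BL/6 mice. The OP group (3 libraries) was treated with okra polysaccharide, carbohydrate chains from the okra plant. The HFCF group (3 libraries) was fed a diet rich in fat, cholesterol and fructose. For OP the labels give neither diet nor dose, and neither group is labelled as a standard diet control. Nothing in the labels ties a sample to its own animal. The p-values therefore cover the spread among these libraries, and that spread could be technical in part.

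Bile acids circulate between liver and intestine. At the sinusoidal face of the hepatocyte, Slc10a1 takes up conjugated bile acids together with sodium, and the organic anion transporters of the Slco1 family take up bile acids and many other anions without sodium. At the canalicular face, Abcb11 pumps out bile salts, Abcb4 moves phosphatidylcholine into the outer leaflet of the membrane, Abcc2 exports conjugated organic anions such as bilirubin glucuronides, and Abcg5 and Abcg8 form a heterodimer that secretes cholesterol. Abcc3 exports conjugates across the basolateral membrane, back into blood.

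The upstream sequences of 5 of these genes are shown first, in 4 windows, because they set the neighbours of a gene family and the subunits of a pair side by side. Slco1a4, Slco1a1 and Slco1b2 lie in 1 cluster on chromosome 6, and Abcg5 and Abcg8 lie head to head on chromosome 17. Sequences are from RefSeq on build GRCm38.p6, not the GRCm39 build named in the submitters' processing notes, and 9 of the 10 genes had an entry (Abcc3 had none). The first 3 are the 250 bases before the annotated start, written along each gene's own strand, and the last is the whole interval of 109 bases between the annotated starts of the pair, along the strand of Abcg8. Capitals mark exact matches, on either strand, to the TATA box TATAAA, to the promoter element CCAAT, to the GATA factor box AGATAA and to the nuclear receptor core hexamer AGGTCA.
Slco1a4, chr6:141856221-141856470, minus strand: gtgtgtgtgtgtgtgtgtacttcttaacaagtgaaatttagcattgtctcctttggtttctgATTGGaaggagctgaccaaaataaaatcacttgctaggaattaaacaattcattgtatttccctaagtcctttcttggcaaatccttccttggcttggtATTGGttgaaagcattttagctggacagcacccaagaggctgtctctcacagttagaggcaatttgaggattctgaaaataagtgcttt
Slco1a1, chr6:141946963-141947212, minus strand: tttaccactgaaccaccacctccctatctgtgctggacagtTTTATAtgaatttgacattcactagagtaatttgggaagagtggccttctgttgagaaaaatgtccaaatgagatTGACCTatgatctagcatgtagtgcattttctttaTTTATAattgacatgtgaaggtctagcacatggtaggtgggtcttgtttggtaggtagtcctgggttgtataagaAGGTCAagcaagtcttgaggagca
Slco1b2, chr6:141629268-141629517, plus strand: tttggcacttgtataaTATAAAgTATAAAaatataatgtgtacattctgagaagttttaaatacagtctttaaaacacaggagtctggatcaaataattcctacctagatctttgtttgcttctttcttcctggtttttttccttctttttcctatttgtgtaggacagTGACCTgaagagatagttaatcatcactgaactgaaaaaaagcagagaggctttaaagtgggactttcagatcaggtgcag
Abcg5-Abcg8 interval, chr17:84683012-84683120, plus strand: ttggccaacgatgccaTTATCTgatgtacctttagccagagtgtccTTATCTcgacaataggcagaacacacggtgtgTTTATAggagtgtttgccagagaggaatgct

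The 3 Slco1 windows shared no marked motif across all of them. The Slco1a4 window held 2 CCAAT boxes, which begin at positions -188 and -89 from the start, and CCAAT was present in 33.8% of all 32544 mouse promoter windows of that length. The Slco1a1 window held 2 copies of AGGTCA, at -134 and -24, and Slco1b2 held 1, at -81; 14.0% of all windows held at least 1. The interval between Abcg5 and Abcg8 held 2 copies of AGATAA, beginning 93 and 63 bases before the Abcg8 start (positions -93 and -63), and 4.0% of windows of 109 bases held this motif. Longer motifs were also searched on both strands in these windows, namely the inverted repeat IR1 (FXR) and the direct repeats DR4 (LXR), DR3 (PXR) and DR1 (HNF4A), each of which contains AGGTCA, as were TGACNNNGC (antioxidant response element) and CACGTG (E-box). None of these 6 was found in the 4 windows, which says only that these letters are not in them. In windows of 250 bases, shares over all promoters were 0.00615%, 0.0154%, 0.00615%, 0.0154%, 10.2% and 6.03% in that order, and that of TATAAA was 12.3%.

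Of the 10 transporters, the uptake transporter gene Slco1a4 was lower in OP livers and was the only member to pass the test. No member passed in the other direction. For comparison, 6.73% of all tested genes passed, 3.47% lower and 3.26% higher in OP. The test was edgeR's quasi-likelihood F test, with p-values adjusted by Benjamini-Hochberg across the whole table and called below 0.05. The log2 fold changes of the 10 members had a median of 0.092, against 0.019 over all tested genes. In 4 of the 10 (Slco1a4, Abcg5, Slco1b2 and Abcc3) the OP libraries did not overlap the HFCF libraries, as in 31.2% of all tested genes (15.4% lower and 15.8% higher in OP). These same 4 members passed in DESeq2 and at an adjusted p under 0.1 in edgeR. In DESeq2 2333 genes passed, or 8.41% of the 27733 with a p-value. That wider set was taken without the edgeR filter on low counts. DESeq2's own filter can leave low-count genes in it without an adjusted p. The share among genes that could pass may therefore be larger than 8.41%. At an adjusted p under 0.1 in edgeR 14.7% of the 17394 filtered genes did. Slc10a1 joined them in limma-voom with quality weights, where 19.3% of genes passed. Levels are given as CPM (the counts of a gene relative to all counts of its library, on library sizes scaled by TMM), fold changes are OP over HFCF on the log2 scale with standard errors, and n = 3 libraries per group.

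**Figure D1:**
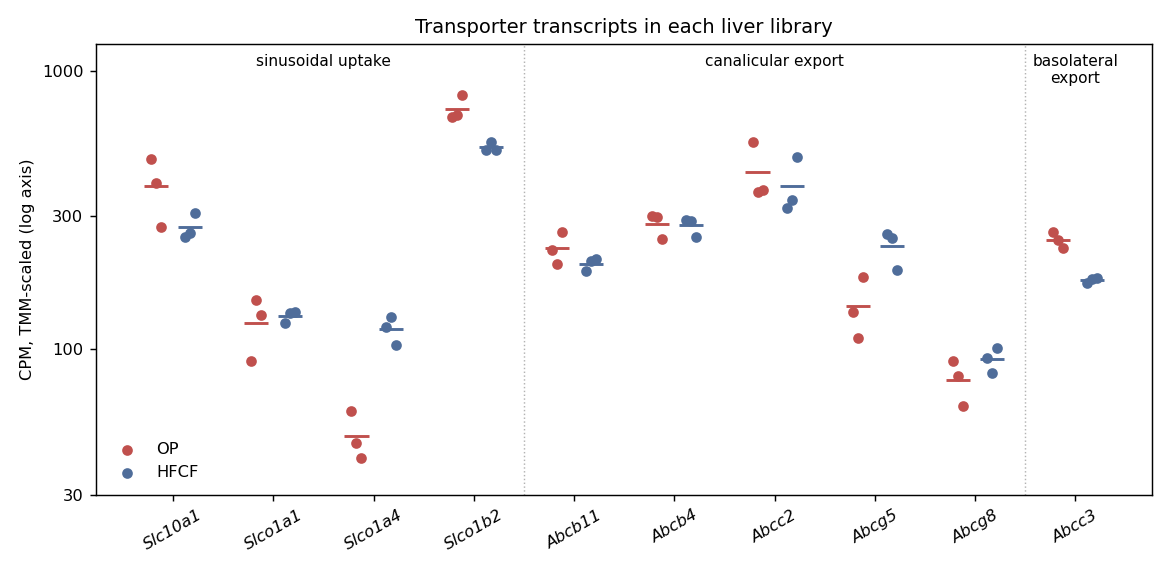
CPM of each transporter gene (log axis) in each library, with OP points left of HFCF points, a bar at each group mean, and the genes ordered by the role of their protein. The OP libraries lie wholly below the HFCF libraries for Slco1a4 and Abcg5 and wholly above them for Slco1b2 and Abcc3.

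Among the uptake transporters, Slco1a4, an organic anion carrier of bile acids, steroid conjugates and drugs, had 60.2, 45.95 and 40.7 CPM in OP livers, against 120.5, 130.9 and 104 CPM in HFCF livers. Every OP library was below every HFCF library. The log2 fold change was -1.27 ± 0.182 (95% interval -1.69 to -0.859; adjusted p = 0.00955 in the edgeR fit). It was -1.45 to -1.16 with each library left out in turn. The call was lost without HFCF replicate 1 (adjusted p = 0.0691 by the same edgeR test, with 0.609% of all genes called) or HFCF replicate 2 (0.0674, with 0.481% called).

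Slco1a1, its neighbour in the cluster and an uptake carrier of a similar range of anions, did not follow it. It had 90.8, 151 and 133 CPM in OP livers, against 124, 135 and 137 CPM in HFCF livers, and the groups overlapped. Its log2 fold change was -0.08 ± 0.192 (95% interval -0.52 to 0.359), and it turned to 0.10 without OP replicate 1. Within each library, the ratio of Slco1a4 to Slco1a1 counts, from which scaling and gene length cancel when libraries are compared, was 0.663, 0.305 and 0.306 in OP and 0.971, 0.97 and 0.761 in HFCF. The groups did not overlap in this ratio, which was chosen after the values were seen. It differed by -1.18 on the log2 scale (SDs of 0.645 in OP and 0.202 in HFCF), with an exact two-sided permutation p = 0.1, the smallest that 3 against 3 libraries can give. In GENCODE M21 transcripts (build GRCm38), 2.73% of the 50-base runs of Slco1a4 and 2.26% of those of Slco1a1 also occurred in another gene, mostly in each other, in Slco1a5 or in Slco1a6. Slco1a5 had 0 counts in every library.

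Slco1b2, the most abundant of the Slco transporters in these livers and the mouse counterpart of the human liver OATP1B carriers, had 683, 697 and 819 CPM in OP livers, against 521, 557.5 and 521 CPM in HFCF livers. Every OP library was above every HFCF library, but the log2 fold change of 0.46 ± 0.144 did not pass (adjusted p = 0.0914 in the edgeR fit). Slc10a1, the sodium-dependent bile acid carrier, had 484, 397 and 274 CPM in OP livers, against 253, 261 and 309.7 CPM in HFCF livers. OP replicate 3 lay within the HFCF range and OP replicates 1 and 2 above it. Its log2 fold change of 0.49 ± 0.214 did not pass (adjusted p = 0.2 in the same edgeR test). Without OP replicate 3 it was 0.68, with an adjusted p of 0.0455; that fit called 7.09% of all genes. Without OP replicate 1 it was 0.29 (adjusted p = 0.502 in edgeR).

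Among the canalicular transporters, Abcg5, 1 subunit of the sterol exporter, had 136, 109.6 and 182 CPM in OP livers, against 258.5, 252 and 193 CPM in HFCF livers. The groups did not overlap, although OP replicate 3 and HFCF replicate 3 were close to each other. The log2 fold change was -0.72 ± 0.211 (95% interval -1.20 to -0.238, adjusted p = 0.0767 in the edgeR fit). Without OP replicate 3 it was -0.93 with an adjusted p of 0.034 in edgeR, in a fit that called 7.09% of all genes. With any other library left out Abcg5 did not pass. Without OP replicate 2 its log2 fold change was -0.56 (adjusted p = 0.173 in edgeR). Abcg8, the other subunit, had 90.9, 80.05 and 62.3 CPM in OP livers, against 93.2, 82.2 and 101 CPM in HFCF livers. Its groups overlapped, and its log2 fold change was -0.24 ± 0.173 (95% interval -0.639 to 0.15). It was -0.11 without OP replicate 3. The ratio of Abcg5 to Abcg8 counts was 1.49, 1.37 and 2.92 in OP, against 2.77, 3.07 and 1.91 in HFCF. The third replicate of each group was the odd library out in this ratio, and the difference of -0.48 on the log2 scale had an exact two-sided permutation p = 0.3 (SDs of 0.599 in OP and 0.358 in HFCF). The 2 genes share 82 exon bases on opposite strands in GENCODE M21, or 3.02% of the Abcg5 and 2.19% of the Abcg8 exon bases.

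The other canalicular pumps differed by less than the spread between libraries. Abcb11, the bile salt export pump, had 227, 203 and 263.5 CPM in OP livers, against 191, 207 and 211 CPM in HFCF livers, a log2 fold change of 0.19 ± 0.145 (95% interval -0.147 to 0.518) that was 0.08 without OP replicate 3. Abcb4, the phospholipid floppase, had 300.0, 298 and 248.5 CPM in OP livers, against 292, 289.8 and 254 CPM in HFCF livers. Its log2 fold change of 0.02 ± 0.143 had a 95% interval of -0.31 to 0.345, and its sign turned with upper quartile scaling (-0.02). Abcc2, the exporter of conjugated anions, had 553.5, 368 and 373.5 CPM in OP livers, against 321, 344.5 and 489 CPM in HFCF livers. OP replicate 1 and HFCF replicate 3 stood above the others of their groups, and the log2 fold change was 0.17 ± 0.226 (95% interval -0.35 to 0.683). It was -0.05 without OP replicate 1 and 0.38 without HFCF replicate 3. Abcb4 shared 3.42% of its 50-base runs with other genes, chiefly its drug-exporting relative Abcb1a.

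Abcc3, the basolateral exporter, had 264, 246 and 231 CPM in OP livers, against 174, 179 and 181 CPM in HFCF livers. The OP libraries all lay above the HFCF libraries, and the spread was the smallest of the 10 members in both groups (6.7% of the mean in OP and 2.02% in HFCF). The log2 fold change of 0.47 ± 0.127 had a 95% interval of 0.182 to 0.763 and an adjusted p of 0.0624 in the edgeR fit. With a library left out, Abcc3 passed only without OP replicate 3 (adjusted p = 0.0467 in edgeR, with 7.09% of all genes called). In the other such fits the edgeR adjusted p reached 0.276, without HFCF replicate 2.

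**Figure D2:**
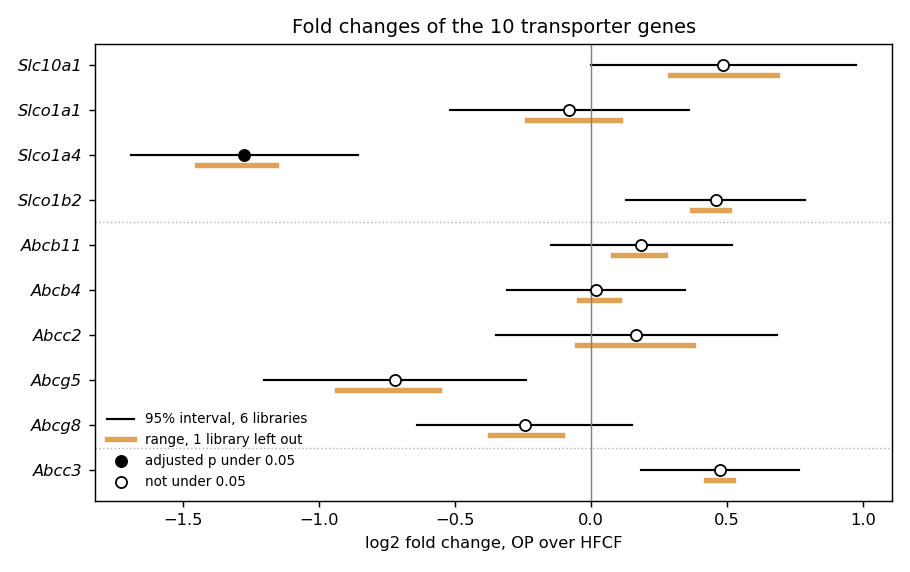
Log2 fold change (OP over HFCF) of each transporter gene, as a point with its 95% interval from the edgeR fit (black line) and the range with each library left out in turn (orange line); a filled point marks an adjusted p under 0.05. Only Slco1a4, at -1.27, is filled, and the orange ranges of Slco1a1, Abcb4 and Abcc2 cross 0.

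Per kilobase of exon, the uptake carriers Slco1b2 and Slc10a1 were the most abundant members in both groups, with 222 ± 22.7 and 175 ± 47.9 CPM per kilobase in OP livers, against 161 ± 6.36 and 125 ± 13.9 in HFCF livers (SD). Their libraries overlapped each other in OP and not in HFCF. In OP livers Abcb4 (69.2 ± 7.14), Abcg5 (58.9 ± 15.1), Abcc2 (53.8 ± 13.1), Abcc3 (49.3 ± 3.31) and Abcb11 (44.9 ± 5.95 CPM per kilobase) came next, each overlapping its neighbour in that order. Then came Slco1a1 (30.8 ± 7.58) and Abcg8 (20.7 ± 3.86), which overlapped each other, and, lowest, Slco1a4 at 12.8 ± 2.63 CPM per kilobase, which overlapped no other member. In HFCF livers the order after Slc10a1 was Abcg5 (96.9 ± 14.8), Abcb4 (68.3 ± 5.24), Abcc2 (47.9 ± 11.3), Abcb11 (39.5 ± 2.03), Abcc3 (35.5 ± 0.725), Slco1a1 (32.5 ± 1.66), Slco1a4 (31.0 ± 3.55) and Abcg8 (24.6 ± 2.53 CPM per kilobase). There the libraries of Abcc2 and Abcb11 overlapped, as did those of Slco1a1 and Slco1a4, and the other neighbours did not. Slco1a4 was thus at a level like that of Slco1a1 in HFCF livers and below it in OP livers.

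Summed per kilobase, the 4 uptake genes stood at 465, 440 and 416 CPM per kilobase in OP livers, against 335, 355 and 359 in HFCF livers. The 5 canalicular genes stood at 267, 225 and 250 in OP livers, against 280.0, 280.0 and 271 in HFCF livers. That lower sum was mostly Abcg5, with means of 58.9 in OP and 96.9 in HFCF. Abcg8 was slightly lower in OP (20.7, against 24.6), and Abcb4, Abcc2 and Abcb11 had higher means in OP than in HFCF. Without division by exon length, the groups overlapped in the canalicular sum. The sum therefore does not show that the canalicular genes fell as a class. The uptake sum over the sum of all export genes was 1.45, 1.61 and 1.4 in OP and 1.06, 1.12 and 1.17 in HFCF, without overlap. These sums are descriptions with no test, and 31.2% of all tested genes also had groups that did not overlap. The uptake sum was mostly Slco1b2 and Slc10a1, neither of which passed the test alone, and Slco1a4 ran against it.

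**Figure D3:**
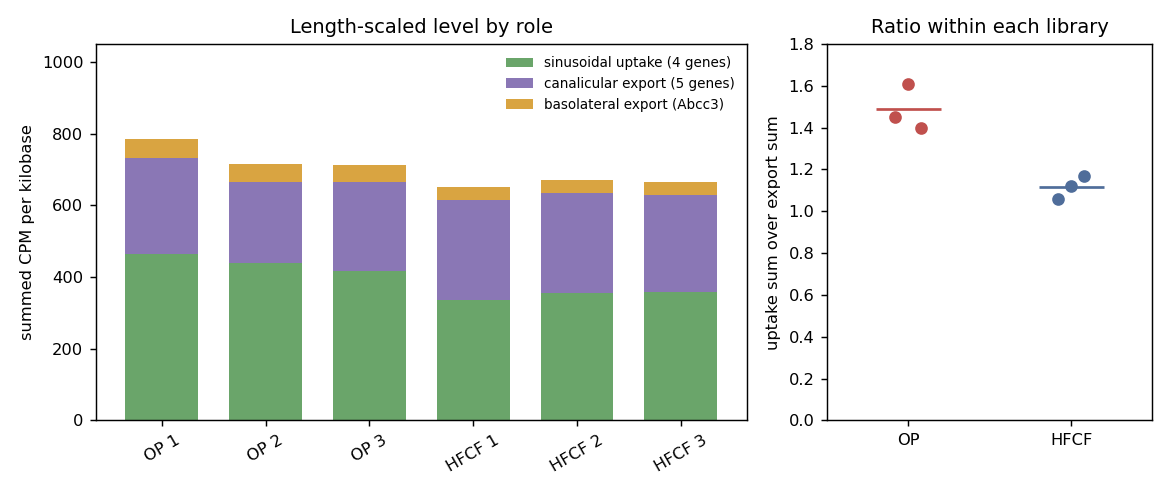
Left, CPM per kilobase of exon summed over the transporters of each role in each library, as stacked bars; right, the uptake sum divided by the sum of the canalicular and basolateral genes, 1 point per library with a bar at the group mean. The ratio runs from 1.4 to 1.61 in the OP libraries and from 1.06 to 1.17 in the HFCF libraries.

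The share of counts in mitochondrially encoded mRNAs varied between libraries, and some members ran with it more closely than others. It was 7.48%, 6.08% and 14.4% in OP replicates 1 to 3, against 22.03%, 18.8% and 14.1% in HFCF replicates 1 to 3, so OP replicate 3 and HFCF replicate 3 were nearly equal. With the libraries put in order of this share, from OP replicate 2 at the low end to HFCF replicate 1 at the high end, Abcg5 stood at 109.6, 136, 193, 182, 252 and 258.5 CPM and Slc10a1 at 397, 484, 309.7, 274, 261 and 253 CPM. Abcg5 thus climbed and Slc10a1 declined along this order, with 1 exchange of neighbours in each. Abcc2 (368, 553.5, 489, 373.5, 344.5 and 321 CPM) and Abcc3 (246, 264, 181, 231, 179 and 174 CPM) also ran mostly downward. The uptake sum over the export sum stood at 1.61, 1.45, 1.17, 1.4, 1.12 and 1.06 in this order, and so ran mostly downward too. The genes and the ratio shown in this order were not set in advance. Slco1a4 stood at 45.95, 60.2, 104, 40.7, 131 and 120.5 CPM in the same order, and its OP replicate 3 was the lowest of all 6. In a fit with this share as a covariate, the log2 fold change was -0.12 ± 0.182 for Abcg5, -0.60 ± 0.225 for Abcg8 and -0.10 ± 0.241 for Slc10a1. The order of the 2 sterol exporter subunits was thus the other way round in this fit, in which neither passed. With the covariate it was -1.37 ± 0.303 for Slco1a4 (adjusted p = 0.0909 in edgeR), 0.62 ± 0.171 for Slco1b2 and 0.36 ± 0.162 for Abcc3. No member passed in that fit, in which 1.19% of all genes did. The share and the group overlap in what they describe, so their parts cannot be told apart.

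**Figure D4:**
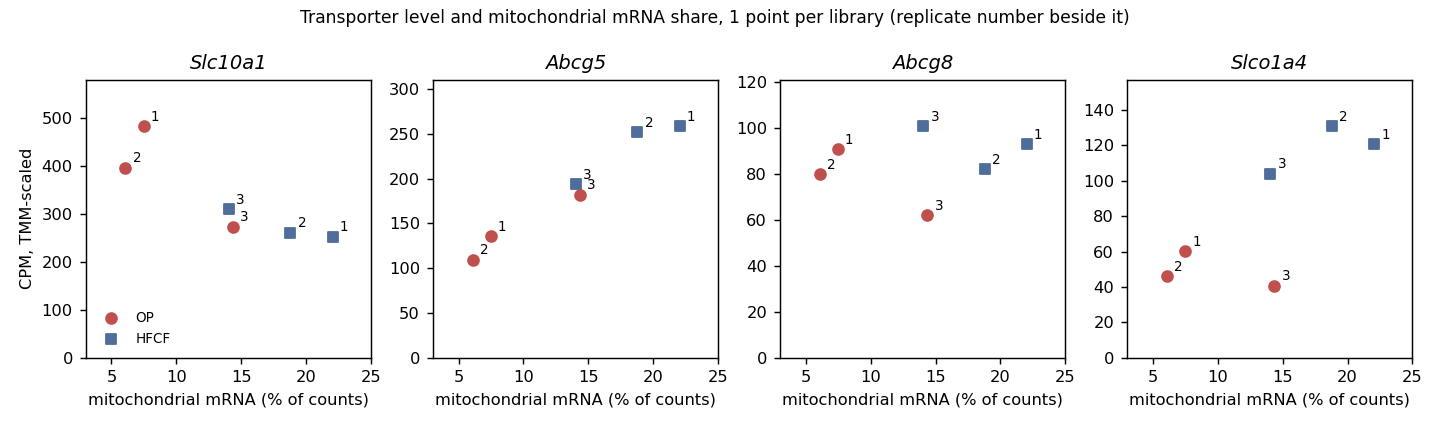
CPM of 4 transporter genes against the percentage of counts in mitochondrially encoded mRNAs, 1 point per library (circles OP, squares HFCF, replicate number beside each). In these panels (Slc10a1, Abcg5, Abcg8 and Slco1a4), Abcg5 is lowest and Slc10a1 highest in OP replicates 1 and 2, which have the smallest shares. Slco1a4 is lowest in OP replicate 3 (40.7 CPM).

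The same livers were read for other carriers of bile acids, organic anions and water. Of 20 listed, 17 were tested, 4 rose and none fell, and their median log2 fold change was 0.25. For this and every later list, the comparison is that 3.26% of all tested genes rose and 3.47% fell. Slc10a2, the sodium-dependent bile acid carrier of ileum, kidney and bile duct cells, had 17.03, 6.65 and 15.7 CPM in OP livers, against 2.86, 1.85 and 3.58 CPM in HFCF livers (log2 fold change 2.24 ± 0.389). All OP libraries were above all HFCF libraries. The other cholangiocyte markers did not move with it: none of the other 8 tested markers of that list had a log2 fold change above 0. Their summed level, mostly Spp1, was 79.4 to 107 CPM in OP and 67.1 to 153 CPM in HFCF. Aqp8, a water channel of the canalicular membrane, rose to 26.9 ± 6.02 CPM in OP livers, against 7.17 ± 1.85 CPM in HFCF livers. Abcg2, an exporter of conjugates and drugs at the canaliculus, averaged 102 ± 25.8 CPM in OP livers and 52.9 ± 8.82 CPM in HFCF livers. Slc22a7, a sinusoidal organic anion carrier, averaged 27.6 ± 7.53 CPM in OP livers and 14.2 ± 2.07 CPM in HFCF livers. In the edgeR fit the adjusted p ran from 0.00584 for Aqp8 to 0.0433 for Slc22a7 over these 4 genes. None of the 4 kept its call without HFCF replicate 1 or HFCF replicate 2. With 1 library left out, Abcg2 kept it only without HFCF replicate 3, Slc22a7 only without OP replicate 1, and Slc10a2 lost it also without OP replicate 1. With the mitochondrial share as a covariate all 4 lost it, their edgeR adjusted p lying between 0.0537 (Aqp8) and 0.136 (Slc22a7).

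Of 22 tested genes of the canalicular membrane and its lipid flippases, 2 rose and none fell (median log2 fold change 0.13). Slc9a3r1, which encodes the scaffold NHERF1 that anchors transporters at the apical membrane, averaged 136 ± 23.4 CPM in OP livers and 60.9 ± 10.1 CPM in HFCF livers. Cldn2, a claudin of the tight junctions that seal the canaliculus, averaged 59.0 ± 6.98 CPM in OP livers and 30.6 ± 7.45 CPM in HFCF livers. The edgeR quasi-likelihood test gave adjusted p of 0.013 and 0.0285, and both calls were lost when OP replicate 1 or either of HFCF replicates 1 and 2 was left out (for Cldn2 also OP replicate 2). With the mitochondrial share as a covariate, Slc9a3r1 was at 0.64 and Cldn2 at 0.46 on the log2 scale, against 1.16 and 0.95 without it, and neither passed (adjusted p = 0.115 and 0.276 in edgeR). Atp8b1, the flippase that keeps the canalicular membrane ordered, was at -0.08 ± 0.199 (log2 fold change).

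Of 22 tested regulators, 1 rose (as did 3.26% of all tested genes) and none fell (median 0.28). That 1 was Nfe2l2, the gene of the oxidative stress factor NRF2, at 108 ± 22.7 CPM in OP livers and 60.4 ± 3.94 CPM in HFCF livers (adjusted p = 0.0298 in the edgeR fit). Nr1h4, which encodes the bile acid receptor FXR, had a log2 fold change of 0.54 ± 0.198 and did not pass, but reached 1.09 with an adjusted p of 0.0404 in edgeR with the mitochondrial share as a covariate. Nr0b2, which encodes the repressor SHP, an FXR target, had 54.5, 36.7 and 10.6 CPM in OP livers, against 9.83, 16.9 and 27.6 CPM in HFCF livers, so OP replicate 3 again lay in the HFCF range. The xenobiotic receptor genes Nr1i2 (0.32 ± 0.202) and Nr1i3 (0.27 ± 0.174), the oxysterol receptor gene Nr1h3 (0.33 ± 0.127) and Hnf4a (0.35 ± 0.210) did not pass either.

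Of 21 tested genes of bile acid synthesis and conjugation, 2 rose (Hsd3b7, 0.80, and Acaa1b, 0.90) and 1 fell (Cyp7a1, the rate-limiting enzyme, -1.14 ± 0.190), with a median of 0.12. These 3 genes and Nfe2l2 each lost the call without OP replicate 1 and without either of HFCF replicates 1 and 2; Hsd3b7 and Nfe2l2 lost it also without HFCF replicate 3, and Acaa1b without OP replicate 2. With the mitochondrial share as a covariate, Nfe2l2 and Hsd3b7 kept the call, and Cyp7a1 (adjusted p = 0.191 in edgeR) and Acaa1b (0.141) lost it. Cyp7a1, like Abcg5 and Abcg8, is a known target of the oxysterol receptors LXR in mice. Outside the transporters, Cyp7a1 was the 1 of 11 listed LXR targets to fall, and none rose; their median was 0.33. Of 9 tested targets of the xenobiotic receptors PXR and CAR (PXR is known to induce Slco1a4 in mouse liver), 1 fell (Cyp3a11, -0.79 ± 0.170) and 2 rose (Cyp2c29, 1.02 ± 0.249, and Aldh1a1, 1.12 ± 0.180). Of 8 tested FXR targets that are not members, Cyp7a1 fell and none rose. The median was 0.20, with 5 of the 8 above 0. That list was not split by whether FXR raises or lowers a gene. These 3 target lists were chosen after the values of the transporters were seen. In the edgeR fit the adjusted p of these called genes ran from 0.0132 for Aldh1a1 to 0.0488 for Cyp2c29.

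**Figure D5:**
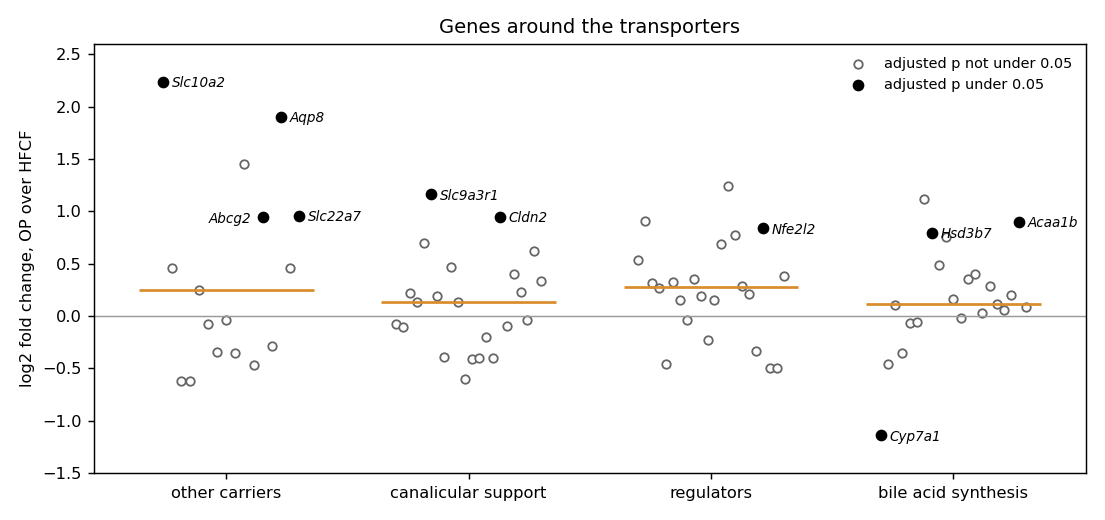
Log2 fold change (OP over HFCF) of each tested gene in 4 lists around the transporters, with filled points for an adjusted p under 0.05 and an orange line at each list's median. Slc51a, at 5.61, lies above the axis; the medians run from 0.12 to 0.28.

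In mouse liver Slco1a1 is known as a male-predominant and Slco1a4 as a female-predominant transcript, and neither list of such genes moved one way. Of 12 other male-biased genes tested, 1 rose (Cyp2u1, 1.28) and 2 fell (Serpina1e, -1.88, and C6, -0.79). Of 15 other female-biased genes listed, only 9 had enough counts to be tested. Of these, Cyp2b9, Cyp2b13 and Hao2 rose and Cux2 fell (-3.85). The 3 that rose passed the low-count filter through their OP libraries. Cyp2b9 had 0, 3 and 44 counts in HFCF libraries. Cyp2b13 and Hao2 averaged only 0.545 and 1.25 CPM in OP livers and had 0 counts in all 3 HFCF libraries. Those 0 counts allow up to 0.0495 to 0.0624 CPM (3 counts, counting error only). If several deposited counts stem from 1 read pair, as the pile-up of genes at a count of 4 leaves possible, this limit is too low by that factor. Cyp2u1 and Cux2 were called with any 1 library left out, Hao2 in 5, Serpina1e in 4, Cyp2b9 in 3 and C6 and Cyp2b13 in 1 of these 6 fits each. Cyp2b9 did not pass in limma-voom either (adjusted p = 0.198). Slco1a4 fell together with Cux2 and against the other 3. The genes most like Slco1a4 over the 6 libraries, by the root mean square difference of centred log2 CPM, were Agbl5 (0.11) and H2-Q5 (0.125). Agbl5, a carboxypeptidase gene, shares 677 exon bases on the opposite strand with Ost4, and H2-Q5 belongs to a family of close copies of MHC class I genes.

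Totals ranged from 50635853 to 61918541 counts in OP libraries and from 46459980 to 58822973 in HFCF libraries, and the members held 1956 to 44309 counts each in any library, so counting error is small beside the spread between libraries. HFCF replicates 1 and 2 resembled each other most, with a chi-square of 46.2 per degree of freedom; the other within-group pairs had 148 to 350. In bulk tissue, fewer cells of a type and less RNA per cell cannot be told apart. Of 9 hepatocyte markers, Ttr rose and Cps1 fell, and their summed level was 59600 to 87700 CPM in OP and 38900 to 60900 CPM in HFCF. The largest part of that sum was Alb (28910 to 50270 CPM in OP, 15870 to 32980 CPM in HFCF), which did not pass. Of 6 periportal hepatocyte markers 3 fell, and of 7 pericentral ones 2 rose. No tested marker passed in the lists for macrophages (8 tested), sinusoidal endothelium (8), stellate cells (8), adipocytes (4), lymphocytes (5) or pancreatic acinar cells (1), and 1 of 3 in the list for intestine or kidney rose (Fabp2, 0.76). The 4 adipocyte markers all had log2 fold changes above 0 (median 3.62), and their summed level, mostly Cfd, was 14.4 to 67.1 CPM in OP and 0 to 4.76 CPM in HFCF, without overlap. Adipoq, the adiponectin gene, had 0, 2.36 and 0.937 CPM in OP and 0, 0 and 0.297 CPM in HFCF. Of 5 red cell genes 4, all globins, fell, with a summed level of 192 to 414 CPM in OP and 941 to 1770 CPM in HFCF. The part of these cell type markers in the transporter results was not tested.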

How the data were processed

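Liver poly(A) RNA was sequenced as 1 library per sample, 3 OP and 3 HFCF, grouped by sample title. The authors deposited 1 table of raw counts per gene. The submitters' processing notes name Cutadapt 1.9, FastQC and build GRCm39. Libraries were stranded (dUTP), per the labels' protocols. Not given in the sources used here are the aligner, the counter and whether counting was by strand. In every library a count of 4 was more frequent than 3 or 5; several counts may thus stem from 1 read pair, and depth would then be overstated. Symbols matched 55141 of 55401 Ensembl identifiers.

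Genes were kept by filterByExpr (17394 of 27893 with any count), scaled by TMM and tested two-sided with edgeR 4.0.16 (glmQLFit, glmQLFTest; R 4.3.3), OP over HFCF, p-values being adjusted by Benjamini-Hochberg across the tested genes and called below 0.05. Each standard error is |log2 fold change| over the root of its F statistic. The script was checked on simulated counts. DESeq2 1.42.0 and limma 3.58.1 were alternatives. Exon lengths (merged exons of protein-coding transcripts), overlaps and shared 50-base runs come from GENCODE M21, which is of another build (GRCm38).

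The members and gene lists were chosen with earlier results of these data known. Genes named were all members, called genes of the lists (at most 5 each), Nr1h4, Nr0b2, Cyp7a1, Nr1i2, Nr1i3, Nr1h3 and Hnf4a, and the 2 genes (mean of at least 5 CPM) most like each called member; log2 CPM for that used a prior count of 2. A further gene of that rule is not reported here. Atp8b1, Slc51a, the marker genes and the called LXR, PXR and CAR targets were named after their values were seen. The labels state no pairing of replicates. Correlations of deviations between same-numbered replicates were 0.023, -0.126 and -0.164, which with 3 libraries per group cannot show whether they were paired.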

Additional observations from a re-analysis of the deposited data

How the results depend on the processing

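Over 22 alternatives, the number of members called ran from 0 to 5. It was 4 of 10 with DESeq2 (Slco1a4, Slco1b2, Abcg5 and Abcc3, with 2333 genes called in all), 5 with limma-voom and quality weights (these and Slc10a1, with 3359 genes), 4 at an adjusted p under 0.1 (2552 genes) and 0 when the mitochondrial share entered as a covariate (207 genes). With each library left out it ran from 0 to 4, and the number of all genes called from 88 to 1310, lowest without HFCF replicate 2 and next without HFCF replicate 1 (112). All genes called numbered 698 with no low-count filter, 164 at an adjusted p under 0.01, 592 with at least a 2-fold change and 180 with the replicate number as a block, in which Slco1a4 kept its call (adjusted p = 0.0436). The labels state no pairing of same-numbered replicates, so this block is only an alternative. Slco1a4 had the same direction in every alternative run, with an adjusted p of 5.2e-09 (DESeq2) to 0.0909 (edgeR, mitochondrial share).

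Signs turned only for log2 fold changes that had not passed. With the mitochondrial share as a covariate these were Slc10a1 (-0.0957), Abcc2 (-0.281), Abcb4 (-0.0471), Nr0b2 (-1.25) and Hnf4a (-0.0227). Without OP replicate 1 they were Slco1a1 (0.105), Abcb4 (-0.0282) and Abcc2 (-0.0518). Abcb4 was also at -0.0213 without OP replicate 2, -0.0451 without HFCF replicate 3, -0.021 with upper quartile scaling, -0.0097 with a filter of 1 CPM in 3 libraries and -0.0023 with counts divided by 4. With each library left out in turn, the ranges were -0.236 to 0.105 for Slco1a1, -0.0451 to 0.102 for Abcb4 and -0.0518 to 0.376 for Abcc2. The cause was not tested. With 3 libraries per group precision is limited: the 95% interval of Abcc2, the widest of the canalicular genes, ran from -0.35 to 0.683.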

Other observations

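Slc51a, a subunit of the basolateral bile acid exporter of ileum and bile ducts, had most of its counts in 1 library, with 0, 40 and 952 counts in OP replicates 1 to 3, against 0, 0 and 23 counts in HFCF replicates 1 to 3. Its partner subunit Slc51b had 11, 14 and 0 counts in OP libraries and 8, 6 and 8 counts in HFCF libraries, and was not tested for its low counts. OP replicate 3, which carried nearly all the Slc51a counts, had 0 counts of Slc51b. It was also the OP library with the highest levels of Foxa2 (20.2, 25.3 and 78.7 CPM in OP, against 15.0, 15.6 and 21.7 CPM in HFCF) and of Cfd, a serum protease of fat cells (12.2, 26.5 and 63.0 CPM in OP, against 0, 0.104 and 3.32 CPM in HFCF). None of Slc51a, Foxa2 and Cfd passed the edgeR test, and these genes were chosen after their values were seen.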
